A study of Mus musculus with 7 samples.

Results

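Small RNAs are made and used by several sets of proteins, some shared by all tissues and some found mainly in germ cells. Of their genes, 10 were followed through oocyte maturation: 4 that make microRNAs and small interfering RNAs (Dicer1, Drosha, Dgcr8 and Tarbp2), 3 that encode Argonaute proteins (Ago1, Ago2 and Ago3) and 3 of the piRNA pathway (Mael, Pld6 and Tdrkh). They were taken by symbol, and each was listed once among the 25912 entries of every library. A library held 10 mouse oocytes of the C57BL/6 strain, taken from 4-week-old females 44 h after pregnant mare serum gonadotropin. The 3 groups were germinal vesicle (GV) oocytes, which are arrested before meiosis resumes (n = 2), oocytes cultured for 16 h to metaphase II (MII) with the solvent DMSO (n = 3), and oocytes cultured to MII with BYBX, a ligand that stabilizes RNA G-quadruplexes (n = 2). The labels give no treatment for the GV oocytes and no dose of BYBX, and they do not say whether libraries of a group came from separate animals or cultures. The p-values therefore measure the spread between libraries, which may be technical.

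Drosha with its partner Dgcr8 cuts microRNA precursors in the nucleus, and Dicer1 with Tarbp2 cuts the products, as well as long double-stranded RNA, in the cytoplasm. Argonaute proteins carry the small RNAs to their targets, and Ago2 can cut the target itself. In mouse oocytes endogenous small interfering RNAs are active against retrotransposons and many messenger RNAs while microRNAs have little activity, and piRNA genes are transcribed although female mice can be fertile without them. An oocyte form of Dicer1 starts from an internal promoter, and values per gene do not separate it from the somatic form.

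Because BYBX binds G-quadruplexes in RNA, the transcripts were searched for sequences that could form one, taken as 4 G runs, each 3 G or longer, separated by 1 to 7 bases. On the longest coding transcript in GENCODE vM21 (GRCm38, the build called mm10), 2 of the 10 genes held such a sequence, Ago1 in 2 places and Ago2 in 1. All 3 matches lie on the minus strand in exon 19 of 19, in the 3′ untranslated region, and they are shown because they are the only matches among the 10 genes under this definition. The capitals mark the G runs, the first Ago1 match is at chr4:126438692-126438710, the second at chr4:126438671-126438685 and the Ago2 match at chr15:73100849-73100871.
Ago1 first match: GGGGtGGGGtgtGGGtGGG
Ago1 second match: GGGaGGGaGGGaGGG
Ago2 match: GGGGattGGGctGGGcttaGGGG
The share with a match was 18.7% over the 8751 matched genes of the tested table, whose median transcript length was 2996 bases against 5131 for the 10 genes. Ago1 was below the level needed for a test and is not among the 8751, so the sets differ. Of the 2 coding transcripts of Ago1, 1 held a match. Letting up to 12 bases stand between runs gave 4 of 10 genes, with Dicer1 and Dgcr8 added, beside 33.4% of all. A match is a feature of the letters and shows neither a folded structure nor binding of the ligand.

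Levels are given in FPKM, which divides the fragments of a gene by its exon length and by the depth of the library, and which the authors scaled to spike-in RNA added to each lysate. Totals over all entries were 402113 to 489569 FPKM in GV, 109732 to 127254 in MII with DMSO and 201482 to 246710 in MII with BYBX. The labelled cell type fitted its markers, since the 8 oocyte markers summed to 9823 to 12034 FPKM in GV, 1537 to 1636 in MII with DMSO and 4524 to 5193 in MII with BYBX. Figla was the lowest of the 8, at 0.0324 to 0.114 FPKM in MII with DMSO. The 10 granulosa and cumulus markers summed to 5.06 to 11.4 FPKM in GV, 1.40 to 1.85 in MII with DMSO and 1.90 to 2.06 in MII with BYBX. Of the 10, 8 stayed under 1 FPKM in every library, and Ptx3 was listed at 0 throughout. Inha had 5.48 and 1.94 FPKM in GV and at most 0.221 in MII. Cyp19a1 had 4.49 and 2.19 FPKM in GV and 1.29 to 1.72 in MII. All 3 theca markers stayed under 1 FPKM in every library, and 4 of 5 erythrocyte markers did so, with sums of at most 0.606 and 1.13 FPKM. The part of these cells in the results was not tested. Reverse transcription started from oligo-dT, so a lower value can be a shorter poly(A) tail or less RNA, which cannot be told apart here.

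**Figure D1:**
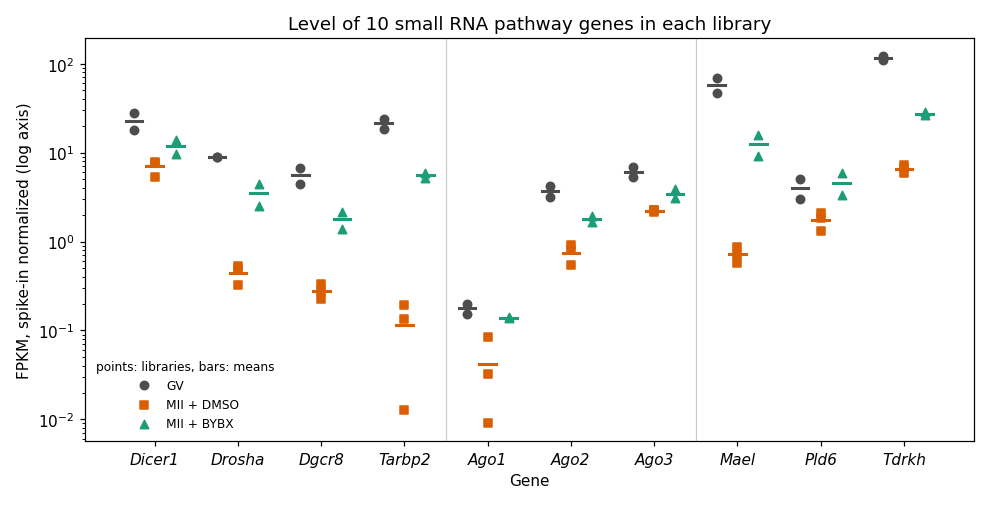
Spike-in normalized FPKM (log axis) of the 10 genes, with 1 point per library and bars at the means of GV (n = 2), MII with DMSO (n = 3) and MII with BYBX (n = 2). All 10 genes have their MII libraries with DMSO below both other groups, as do most entries tested (92.5% below GV and 79.0% below BYBX), and Pld6 is the only one of the 10 whose GV and BYBX-treated libraries overlap.

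The first comparison was between GV oocytes and MII oocytes with DMSO, that is, the course of maturation. All 10 genes were lower in MII in every library, from 2.30-fold for Pld6 to 187-fold for Tarbp2 between the means, and 92.5% of all 9202 entries tested were also lower without overlap (0.315% higher). Of the 9 genes whose mean level reached the 1 FPKM needed for a test (Ago1 did not), 9 fell and 0 rose at an adjusted p under 0.05 by limma with Benjamini-Hochberg adjustment over all 9202 entries tested. The background was nearly as high, with 88.3% of all entries called lower and 0.272% higher, so that the fall itself does not set these genes apart. What varied between them was its size, and the median entry fell by 1.83 on the log2(FPKM + 1) scale against 2.36 for the median of the 9 genes.

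Tarbp2, the double-stranded RNA-binding partner of Dicer1, had 24.2 and 18.4 FPKM in GV, 0.135, 0.0128 and 0.195 in MII with DMSO and 5.94 and 5.20 in MII with BYBX. The 3 groups did not overlap, and the MII libraries with DMSO were close to 0. Its difference between MII with DMSO and GV was -4.32 (SE 0.22, limma adjusted p = 7.5e-10) on the log2(FPKM + 1) scale, which understates changes of low values. Dicer1 itself had 28.0 and 17.9 FPKM in GV, 5.33, 7.73 and 7.94 in MII with DMSO and 14.0 and 9.77 in MII with BYBX. It kept 30.5% of its GV mean in MII with DMSO, where Tarbp2 kept 0.536% and the median entry 16.3%. The value for Tarbp2 rests on levels near 0 and was 0.346%, a 289-fold difference, without MII with DMSO replicate 3. The difference for Dicer1 was -1.57 (SE 0.28, limma adjusted p = 1.3e-04). Within a library, and so whatever its scaling, the ratio of Tarbp2 to Dicer1 was 0.864 and 1.03 in GV, 0.0253, 0.00165 and 0.0245 in MII with DMSO and 0.424 and 0.532 in MII with BYBX. The pair thus had near-equal FPKM in GV and far more for Dicer1 in MII with DMSO, with the BYBX libraries between. Such a ratio does not remove differences in poly(A) tails, so it is not a ratio of transcript numbers.

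Drosha, the nuclear nuclease, had 8.82 and 9.0 FPKM in GV, 0.320, 0.527 and 0.495 in MII with DMSO and 4.45 and 2.51 in MII with BYBX. Dgcr8, its RNA-binding partner, had 6.78 and 4.49, then 0.334, 0.224 and 0.277, and 1.39 and 2.15 FPKM in the same order. For both genes the groups stood apart without overlap. Drosha fell by 2.78 (SE 0.23, limma adjusted p = 5.2e-08) and Dgcr8 fell by 2.36 (SE 0.21, limma adjusted p = 1.4e-07) from GV to MII with DMSO. The ratio of Drosha to Dgcr8 ran from 1.30 to 2.0 in GV, 0.958 to 2.35 in MII with DMSO and 1.17 to 3.20 in MII with BYBX, so its ranges overlapped in all 3 groups. Drosha against Dicer1 did separate MII with DMSO, at 0.0602 to 0.0681, from GV at 0.315 to 0.502 and from MII with BYBX at 0.257 to 0.317. In 825 of its 7696 exonic bases Dgcr8 overlaps Trmt2a on the opposite strand, and a library that does not mark strand cannot divide reads there. On its own strand Dgcr8 shares 327 bases with the protein-coding gene Gm49776. It also shares 88 and 79 bases there with the microRNA genes Gm24572 and Mir1306. Drosha shares 72 bases with the microRNA gene Gm47288 on the same strand. Trmt2a had 4.38 to 5.56 FPKM in GV, 0.181 to 0.334 in MII with DMSO and 1.40 to 2.02 in MII with BYBX.

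Among the 3 Argonaute genes, Ago3 had the highest level in each of the 7 libraries and Ago1 the lowest. Ago3 had 6.88 and 5.29 FPKM in GV, 2.24, 2.16 and 2.29 in MII with DMSO and 3.87 and 3.05 in MII with BYBX. Ago2 had 4.17 and 3.16, then 0.906, 0.542 and 0.802, and 1.67 and 1.95 FPKM. Neither gene had overlapping groups, and Ago3 against Ago2 was 1.65 and 1.67 in GV, 2.47 to 3.98 in MII with DMSO and 1.57 to 2.31 in MII with BYBX. From GV to MII with DMSO, Ago2 fell by 1.41 (SE 0.20, limma adjusted p = 1.3e-05) and Ago3 fell by 1.13 (SE 0.22, limma adjusted p = 2.4e-04), each less than the median entry. Ago2 shares 219 of its 14031 exonic bases with Chrac1 on the opposite strand, which had at most 1.68 FPKM in any library. Ago1, the other microRNA-binding Argonaute listed, had the lowest level of the 10 genes with 0.200 and 0.154 FPKM in GV, 0.0842, 0.00920 and 0.0328 in MII with DMSO and 0.138 and 0.141 in MII with BYBX. The order of its groups was that of the other Argonautes, without overlap, and its fold from MII with DMSO to GV was 4.21, or 8.44 without MII with DMSO replicate 1. Fitted with no filter on level, its differences were -0.18 (limma adjusted p = 0.0062) from GV to MII with DMSO and 0.13 (limma adjusted p = 0.042) between the MII groups. Between MII with BYBX and GV the difference was -0.046 (limma adjusted p = 0.38). The log2(FPKM + 1) scale compresses levels this low, so these fits carry little weight.

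The 3 piRNA genes spanned the list, with Tdrkh and Mael at the highest GV levels and Pld6 at one of the lowest. Tdrkh, a mitochondrial Tudor protein on which piRNA ends are trimmed, had 121.5 and 108.8 FPKM in GV, 5.86, 6.65 and 7.21 in MII with DMSO and 28.3 and 26.3 in MII with BYBX. Mael, which acts in piRNA-guided silencing of retrotransposons, had 69.4 and 46.4, then 0.879, 0.569 and 0.702, and 9.21 and 15.95 FPKM. Each group of each gene lay apart from the others. Mael fell by 5.08 (SE 0.28, limma adjusted p = 1.2e-09) from GV to MII with DMSO, to 1.24% of its GV mean, and Tdrkh fell by 3.94 (SE 0.24, limma adjusted p = 2.8e-09), to 5.71%. The ratio of Mael to Tdrkh, free of library scaling, was 0.426 and 0.571 in GV, 0.0856 to 0.150 in MII with DMSO and 0.325 and 0.606 in MII with BYBX. Tdrkh shares 2255 of its 6142 exonic bases with Oaz3 on the opposite strand, and Oaz3 had 1.81 to 2.64 FPKM in GV, 0.0823 to 0.164 in MII with DMSO and 0.341 to 1.30 in MII with BYBX.

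Pld6, the mitochondrial nuclease that forms the leading end of piRNAs, had 5.04 and 3.02 FPKM in GV, 1.83, 1.32 and 2.10 in MII with DMSO and 5.85 and 3.33 in MII with BYBX. The MII libraries with DMSO were below all others, and the other two groups overlapped. It fell by 0.85 (SE 0.26, limma adjusted p = 0.0081) from GV to MII with DMSO, the smallest fall of the 9 genes tested, and without GV replicate 1 the value was -0.56 (limma adjusted p = 0.14). Against Tdrkh, Pld6 stood at 0.0277 to 0.0415 in GV, 0.199 to 0.313 in MII with DMSO and 0.127 to 0.206 in MII with BYBX.

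**Figure D2:**
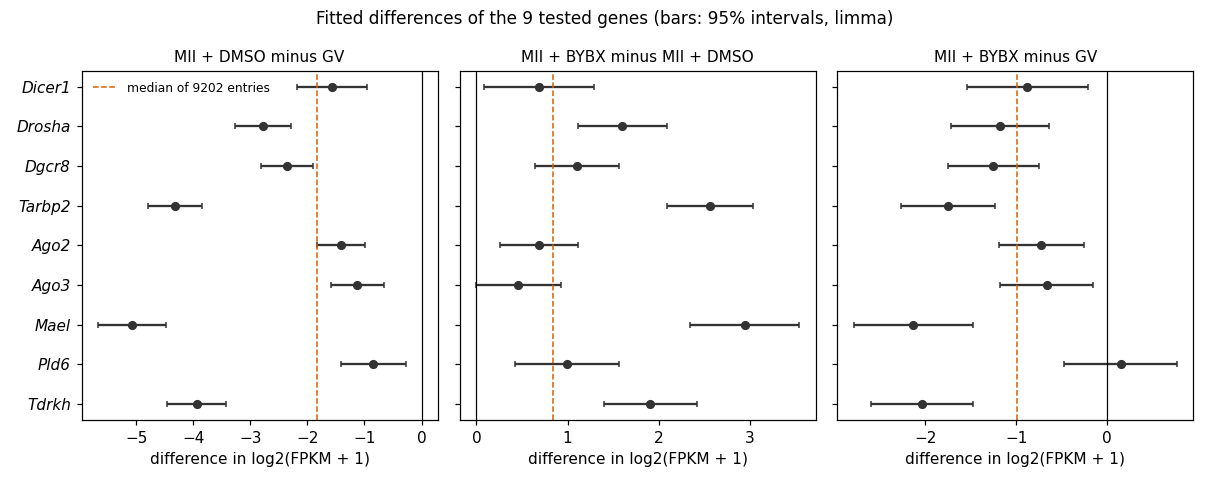
Fitted differences in log2(FPKM + 1) of the 9 genes tested, with 95% intervals from limma; the solid line is no change and the dashed line the median of 9202 entries. Mael, Tarbp2 and Tdrkh lie farthest from 0 in the comparisons with MII with DMSO, and the interval of Pld6 includes 0 between MII with BYBX and GV.

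The second comparison set MII oocytes with BYBX against MII oocytes with DMSO, both labelled MII. The paper reports that fewer oocytes released the first polar body as the BYBX concentration rose. It also reports abnormal spindles in the treated oocytes that did reach MII. Whether the 2 groups were at an equal stage was not tested. All 10 genes were higher with BYBX in every library, from 1.55-fold for Ago3 to 48.8-fold for Tarbp2 between the means, as were 79.0% of all entries tested (0.293% were lower without overlap). The fold of Tarbp2 was 75.4 without MII with DMSO replicate 3. Of the 9 genes tested, 8 rose and 0 fell, beside 65.2% and 0.0326% of all entries. The median difference was 1.10 over the 9 genes and 0.84 over all entries on the log2(FPKM + 1) scale. Mael rose most on that scale, by 2.94 (SE 0.28, limma adjusted p = 9.6e-07), followed by Tarbp2 with 2.56 (SE 0.22, limma adjusted p = 4.3e-07) and Tdrkh with 1.91 (SE 0.24, limma adjusted p = 1.2e-05). Drosha rose by 1.60 (SE 0.23, limma adjusted p = 3.9e-05), Dgcr8 by 1.10 (SE 0.21, limma adjusted p = 5.0e-04) and Ago2 by 0.69 (SE 0.20, limma adjusted p = 0.0082).

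The calls of the other tested genes, Pld6, Dicer1 and Ago3, were less firm. Pld6 rose by 1.0 (SE 0.26, limma adjusted p = 0.0048), and by 0.66 (limma adjusted p = 0.067) without MII with BYBX replicate 1, which was then no longer called. Dicer1 rose by 0.69 (SE 0.28, limma adjusted p = 0.046), and the call was lost when any 1 library of MII with DMSO or replicate 1 of MII with BYBX was left out, with values of 0.45 to 0.77 (limma adjusted p = 0.053 to 0.30). Ago3 did not pass, at 0.46 (limma adjusted p = 0.077, 95% interval -0.0074 to 0.93), although its 5 MII libraries did not overlap by treatment. It passed when either GV library was left out (limma adjusted p = 0.049 in both fits).

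The third comparison set MII oocytes with BYBX against GV oocytes. The libraries of 9 of the 10 genes were lower with BYBX without overlap, all but Pld6, beside 82.3% of all entries tested (0.848% were higher). Of the 9 genes tested, 8 were lower and 0 higher in the MII oocytes, beside 69.2% and 0.315% of all entries, and 5 were lower without GV replicate 1. Mael fell by 2.13 (SE 0.30, limma adjusted p = 9.1e-05), Tdrkh by 2.03 (SE 0.26, limma adjusted p = 6.9e-05) and Tarbp2 by 1.76 (SE 0.24, limma adjusted p = 7.8e-05), where the median entry fell by 0.99. Dgcr8 and Drosha fell by 1.25 (limma adjusted p = 4.4e-04) and 1.18 (limma adjusted p = 0.0010). Dicer1 fell by 0.88 (limma adjusted p = 0.021), Ago2 by 0.72 (limma adjusted p = 0.0096) and Ago3 by 0.66 (limma adjusted p = 0.023). All 3 of these calls were lost without GV replicate 1, with values of -0.57, -0.57 and -0.50, and those of Dicer1 and Ago3 also without MII with BYBX replicate 2, with -0.64 and -0.53. Pld6 differed by 0.15 (SE 0.29, limma adjusted p = 0.66, 95% interval -0.48 to 0.77), and leaving out 1 library could turn its sign, to -0.15 without GV replicate 2 and -0.18 without MII with BYBX replicate 1.

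The share of each fall absent with BYBX was the BYBX mean less the DMSO mean, over the GV mean less the DMSO mean. It was 0.191 for Tdrkh, 0.208 for Mael, 0.257 for Tarbp2, 0.279 for Dgcr8, 0.307 for Dicer1, 0.319 for Ago3, 0.358 for Drosha and 0.364 for Ago2. These lay around the median of 0.295 over the 9026 tested entries that were lower in MII with DMSO (quartiles 0.223 and 0.411), with Tdrkh and Mael below the lower quartile. Pld6 stood at 1.25, with 1.80 and 0.695 in the 2 BYBX libraries, which spans full and partial retention. The BYBX libraries also differed for Dicer1 (0.439 and 0.174), Drosha (0.473 and 0.244), Ago3 (0.425 and 0.214), Dgcr8 (0.207 and 0.350) and Mael (0.149 and 0.266). They lay closer for Ago2 (0.316 and 0.412), Tarbp2 (0.275 and 0.240) and Tdrkh (0.200 and 0.182). With BYBX the mean was 114% of GV for Pld6, 56.9% for Ago3, 51.8% for Dicer1, 49.4% for Ago2 and 21.7% to 39.1% for the other genes tested.

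Most entries of the table moved the same way, so the directions depend on how libraries are scaled. As deposited, the median entry shifted by -1.83, 0.84 and -0.99 in the 3 comparisons. Rescaling every library to the same total FPKM turned these shifts into -0.56, 0.34 and -0.17, and centring every library on its median log2 level turned them into 0.47, -0.44 and 0.04. For the last, all entries were called higher and lower in 48.8% and 26.7% (MII with DMSO against GV), 18.4% and 43.9% (the MII groups) and 15.2% and 13.6% (MII with BYBX against GV). With the same total the shares were 23.3% and 49.5%, 39.9% and 8.22%, and 5.30% and 13.3%.

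Tarbp2, Mael and Tdrkh kept their calls in every comparison under all 3 scalings. After median centring they were still below GV in the MII oocytes with DMSO, at -2.01, -2.77 and -1.64, higher with BYBX than with DMSO, at 1.28, 1.66 and 0.63, and lower with BYBX than in GV, at -0.73, -1.11 and -1.01. Drosha and Dgcr8 kept their calls in the first 2 comparisons with the same total. After median centring neither was called in any comparison, and Dgcr8 turned to -0.17 between the MII groups. Centring followed the addition of 1 FPKM, which mutes changes of levels near 0. In FPKM, Drosha and Dgcr8 kept 5.02% and 4.94% of their GV means in MII with DMSO, where the median entry kept 16.3%. The BYBX mean of Dgcr8 was 6.37-fold its DMSO mean. Dicer1, Ago2, Ago3 and Pld6 changed direction: after median centring they were called higher in the DMSO-treated MII oocytes than in GV, at 0.74, 0.89, 1.18 and 1.45 (limma adjusted p = 0.0099, 0.0012, 1.1e-04 and 2.0e-04). Dicer1, Ago2 and Ago3 were then lower with BYBX than with DMSO, at -0.59, -0.59 and -0.82 (limma adjusted p = 0.034, 0.016 and 0.0024). Pld6 was called higher with BYBX than in GV under both rescalings, at 0.89 with the same total and 1.17 after centring (limma adjusted p = 0.046 and 0.014).

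The rank of a gene within its library needs no scaling and showed the same division. Tarbp2 stood at percentile 63.3 of the 9202 tested entries in GV, 8.60 in MII with DMSO and 49.7 in MII with BYBX, taken as means over libraries. Mael went from 83.3 to 31.4 and 68.6, and Tdrkh from 92.0 to 75.3 and 84.1. Drosha also stood lowest in MII with DMSO (40.7, 23.2 and 36.3). The means of Dgcr8 were 27.9, 16.9 and 19.9, but its BYBX libraries, at 13.9 and 25.8, lay on both sides of the DMSO libraries at 14.9 to 20.5. The opposite course was seen for the means of Dicer1 (64.7, 76.1 and 68.0), Ago3 (30.4, 55.2 and 37.0), Ago2 (17.2, 32.2 and 20.7) and Pld6 (19.0, 49.7 and 43.5). For Pld6 the BYBX libraries, at 49.7 and 37.4, overlapped the DMSO libraries at 43.6 to 52.9, and GV alone stood apart. In order of level, Tdrkh led in GV, followed by Mael and then Dicer1 and Tarbp2, whose ranges overlapped. In MII with DMSO, Dicer1 and Tdrkh led with overlapping ranges and Tarbp2 and Ago1, again overlapping, came last. With BYBX the order began as in GV, with Tdrkh first and Mael and Dicer1 overlapping behind it.

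**Figure D3:**
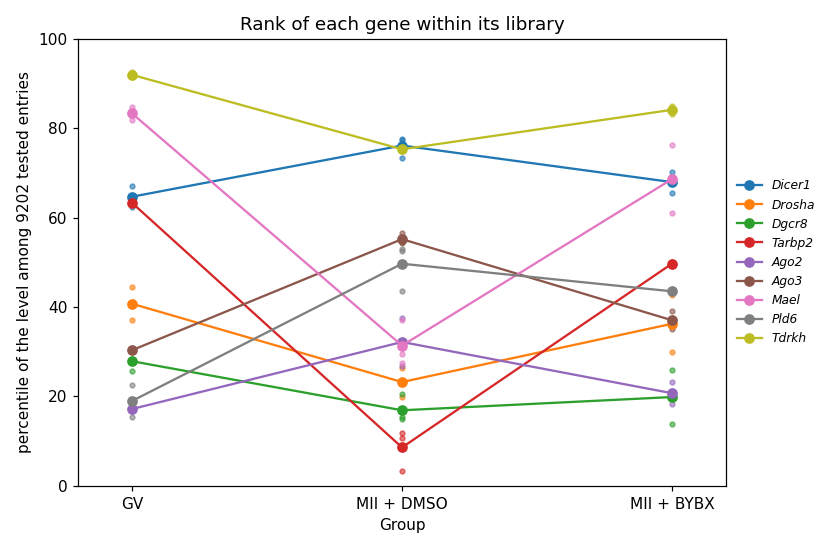
Percentile of each gene's level among the 9202 tested entries, with small points for libraries and large points joined by lines for the means of GV (n = 2), MII with DMSO (n = 3) and MII with BYBX (n = 2). Tarbp2 drops from 63.3 to 8.60 and Mael from 83.3 to 31.4 in MII with DMSO, while Dicer1, Ago2, Ago3 and Pld6 have higher percentiles there than in GV.

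The 40 further small RNA genes, taken by role, included 34 that reached the level needed for a test. The filter took the mean over the 3 groups. Mov10, Piwil2 and Mov10l1 passed through GV alone, with means under 1 FPKM in both MII groups. Mov10 had means of 3.47 FPKM in GV, 0.00147 in MII with DMSO and 0.655 with BYBX. Tdrd7 (2.87, 0.0320 and 1.20 FPKM in the same order) and Pnldc1 (6.05, 0.0639 and 1.69) also needed their GV level to pass. For such genes the filter favoured a fall from GV. From GV to MII with DMSO 31 of the 34 fell, 0 rose and 3 did not pass, which were Ddx17, Lin28a and Piwil1 (named because the count is small, after their values were seen). The median of the 34 was -1.74, near the -1.83 of all entries. With BYBX against DMSO 21 rose, 0 fell and 13 did not pass, and against GV 23 were lower, 0 higher and 11 did not pass. Over all entries 88.3% were called lower, 65.2% higher and 69.2% lower in the 3 comparisons in turn. The counts of the 34 genes were near these shares. By role, the median differences from GV to MII with DMSO were -0.82 for microRNA processing and export (7 of 9 fell), -1.29 for Argonaute loading and silencing (8 of 8) and -3.30 for the piRNA pathway (16 of 17). Between the MII groups they were 0.52 (3 of 9 rose), 0.62 (5 of 8) and 1.49 (13 of 17). The first 2 roles changed sign with the scaling, to 0.48 and 0.32 with the same total and 1.48 and 1.01 after median centring in the first comparison, and to -0.14 and -0.14, and -0.76 and -0.66, between the MII groups, while the piRNA medians kept their sign at -1.92 and -0.99, and at 1.29 and 0.21. After median centring 10 of the 17 piRNA genes were below GV and 4 above it in MII with DMSO. For each of the other roles 1 was below and 6 above, and over all entries 26.7% were below and 48.8% above. Centring followed the addition of 1 FPKM, which mutes falls to levels near 0, so these counts are limited for such genes. Piwil2, called above GV at 0.74, kept 3.14% of its GV mean, where the median entry kept 16.3%. Between the MII groups the centred values gave 7 higher and 4 lower for the piRNA genes, 0 and 6 for microRNA processing and export, and 1 and 7 for Argonaute loading and silencing, beside 18.4% and 43.9% of all entries.

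**Figure D4:**
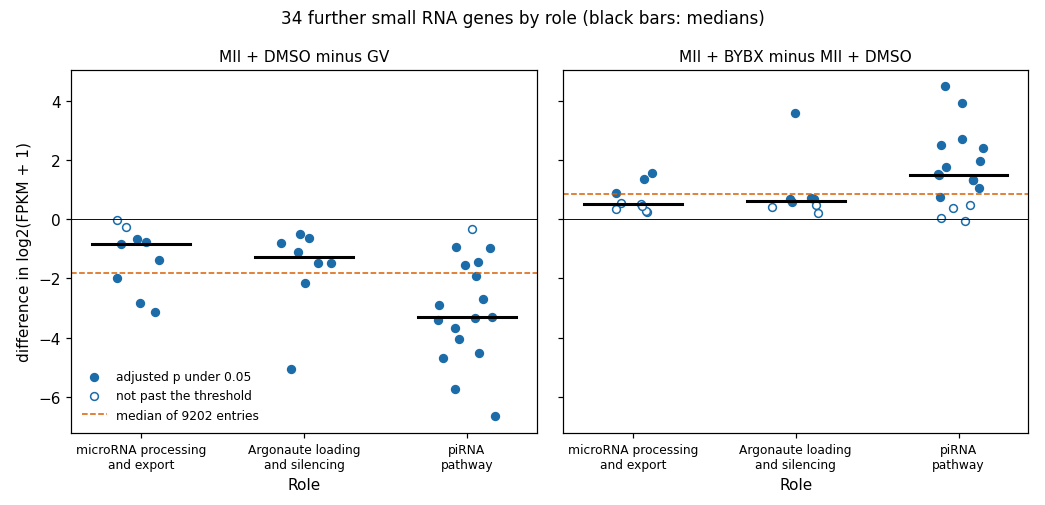
Differences in log2(FPKM + 1) of 34 further small RNA genes by role, with 1 point per gene, filled where the limma adjusted p is under 0.05, black bars at the medians and a dashed line at the median of 9202 entries. The piRNA genes have a median of -3.30 from GV to MII with DMSO and 1.49 between the MII groups, against -1.83 and 0.84 for all entries.

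In each role the genes of highest GV mean are given. A choice by GV level can favour large falls from GV, so these genes do not stand for their role. Those of microRNA processing and export all fell more than the role median of -0.82. Limd1, of Argonaute loading and silencing, fell less than the -1.29 of its role. Gtsf1, a cofactor of PIWI proteins, had 760.8 and 692.1 FPKM in GV, 5.39, 5.66 and 7.87 in MII with DMSO and 194.2 and 134.5 in MII with BYBX. Its differences were -6.65 from GV to MII with DMSO (limma adjusted p = 2.6e-10) and 4.49 between the MII groups (limma adjusted p = 4.1e-08), each farther from 0 than those of Mael. Tdrd12 and Tdrd5, both Tudor proteins of piRNA production, fell by 4.04 and 4.70 and rose by 2.39 and 2.50 with BYBX. Tsnax, which with Tsn forms a nuclease that clears the passenger strand of small interfering RNAs, had 87.6 and 64.5 FPKM in GV, 1.14, 0.977 and 1.82 in MII with DMSO and 27.6 and 24.8 in MII with BYBX. Its partner Tsn fell by 1.47 where Tsnax fell by 5.06, so this pair too was unequal. Limd1, which links Argonaute to silencing proteins, fell by 0.81 and rose by 0.67 with BYBX. The fall of Limd1 was -0.46 (limma adjusted p = 0.12) without GV replicate 1, and its rise was 0.56 to 0.78 (limma adjusted p = 0.057 to 0.17) without MII with DMSO replicate 2 or 3 or either BYBX library, so both calls were lost there. Xpo5, the exporter of microRNA precursors, fell by 3.12 and Srrt, a cap-bound factor of microRNA processing, fell by 2.85, and both rose with BYBX, by 1.37 and 1.57. Ddx5, a helicase that works with Drosha, fell by 1.39 and had a difference of 0.54 (limma adjusted p = 0.10) with BYBX.

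The entries closest in pattern were found by the root mean square difference over the 7 libraries in log2(FPKM + 1), each gene's mean removed. For Tdrkh, the gene of highest GV level, they were Utp11 (0.0658), Dpy19l1 (0.0668) and Fam207a (0.0781). For Pld6, whose change from GV to MII with DMSO was smallest, they were Phf1 (0.109), 4930452B06Rik (0.149) and 1500015A07Rik (0.151).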

How the data were processed

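Smart-seq2 libraries of 10 oocytes each were used (GV n = 2, MII with DMSO n = 3, MII with BYBX n = 2), grouped by their labels. The authors trimmed reads with Trim Galore 0.6.7, aligned them to mm10 with HISAT2 2.2.1 and computed FPKM with Cufflinks 2.2.1 on UCSC gene models. The deposited FPKM values had been normalized by the authors to the spiked-in ERCC RNA, and libraries of different batches to their batch's GV oocytes. The scaling factors and the batch of a library are not given in the sources used here, so a batch and a group cannot be told apart. Each table listed 25912 entries (25164 names, 333 of them repeated), and 4 with a missing value were left out. Cufflinks values keep no read counts, so the depth is unknown and precision rests on the number of libraries.

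Values were tested as log2(FPKM + 1) with limma 3.58.1 in R 4.3.3 (lmFit, contrasts.fit and eBayes with trend), with all 7 libraries in 1 model of 3 group means with 4 residual degrees of freedom, over the 9202 entries whose mean of group means was at least 1 FPKM. Calls were made at a Benjamini-Hochberg adjusted p under 0.05 over these entries. The step was tested on simulated data. All 10 genes were named, and of 40 further small RNA genes the 3 of highest GV mean in each role. Of the 40, 6 (Prkra, Tut4, Ago4, Piwil4, Tdrd6 and Gpat2) did not pass the filter. The genes, the lists and the markers were chosen with earlier results of these data known, and the 3 comparisons share libraries. Transcripts, positions and overlaps were taken from GENCODE vM21, in which 95.6% of the 9154 tested names matched, with Python 3.11.15, numpy 2.4.6, pandas 2.3.3 and matplotlib 3.10.9. The Smart-seq2 kit does not mark strand. The alternatives were a pseudocount of 0.1, a filter at 5 FPKM or none, the same total FPKM, median centring, a fit of just the 2 groups, a replicate block, eBayes without trend, a 2-fold minimum, other definitions of the motif, and each library left out in turn.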

Additional observations from a re-analysis of the deposited data

How the results depend on the processing

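Libraries of 2 or 3 per group and values near 0 in MII with DMSO limit these results, and the scale of the libraries moved them most. Of 9 genes tested, the counts called higher and lower from GV to MII with DMSO were 0 and 9 as deposited, 0 and 5 with the same total FPKM and 4 and 3 after median centring. Between the MII groups they were 8 and 0, then 5 and 0, and 3 and 3, and for MII with BYBX against GV 0 and 8, then 1 and 3, and 1 and 3. For the 34 further genes, the counts were 8 and 18 (same total) and 16 and 12 (centring) in the first comparison, 8 and 17 (centring) in the second, and 1 and 7 (same total) and 7 and 9 (centring) in the third. A filter at 5 FPKM, which tests fewer genes, left 4 of the 10 genes called in each comparison, and 17 and 14 of the further genes lower in the first and the third. A minimum of 2-fold left 5 higher between the MII groups and 5 lower against GV. Leaving out 1 library gave 8 or 9 lower in the first comparison, 6 to 9 higher in the second and 5 to 8 lower in the third, with 5 without GV replicate 1.

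Signs turned as follows, with the same total FPKM first and median centring second where both turned. From GV to MII with DMSO the values were 0.17 and 0.74 for Dicer1, 0.36 and 1.18 for Ago3, 0.52 and 1.45 for Pld6, 0.17 and 0.83 for Tsn, 0.87 and 1.497 for Limd1, 0.48 and 0.92 for Ddx5, and 0.89 (centring) for Ago2. Between the MII groups they were -0.12 and -0.59 for Dicer1, -0.22 and -0.82 for Ago3, -0.068 and -0.59 for Tsn, -0.12 and -0.61 for Limd1, -0.34 and -0.74 for Ddx5, and, with centring alone, -0.17 for Dgcr8, -0.59 for Ago2, -0.28 for Pld6 and -0.17 for the median of the 9 genes. The median of the 34 further genes went from -1.74 to 0.57 and from 0.73 to -0.54 in these 2 comparisons after centring, and from -1.02 to 0.0095 for MII with BYBX against GV. For MII with BYBX against GV the values of single genes were 0.052 and 0.14 for Dicer1, 0.14 and 0.36 for Ago3, 0.10 and 0.24 for Tsn, 0.75 and 0.89 for Limd1, 0.13 and 0.18 for Ddx5, and 0.30 (centring) for Ago2. Leaving out 1 library gave -0.18 to 0.48 for Pld6 and -0.48 to 0.21 for Limd1 in the third comparison. The cause was not tested, and centring followed the addition of 1 FPKM, which mutes falls to levels near 0. Loops of up to 12 bases gave 4 genes with a motif in place of 2.

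The labels do not say that equal replicate numbers mark a shared animal or batch, and the correlations of same-numbered deviations were 0.487 and 0.282, -0.601 and -0.348, and -0.33 in both pairs, in the 3 comparisons in turn. With the replicate block the counts of the 9 genes were 9 lower, 7 higher and 7 lower, Dicer1 between the MII groups being 0.77 (limma adjusted p = 0.069) and Ago3 against GV -0.66 (limma adjusted p = 0.056).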
